A study of Mus musculus with 6 samples.

Results

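Mitosis and the G2 phase before it are run by a set of genes whose transcripts build up late in the cell cycle: cyclins and kinases that start mitosis, checkpoint proteins that hold it until chromosomes are attached, motors and spindle proteins that move the chromosomes, and proteins that divide the cell. In cells that have left the cycle these genes are held down by the DREAM complex, which binds a promoter motif called the cell cycle genes homology region (CHR), and in cycling cells B-Myb and FoxM1 act at the same promoters. Summed over a culture, their RNA is a common readout of how many cells are dividing. The list described here holds 37 such genes, chosen by name, and 36 were measured, out of 18193 named genes on the array. Ccnb1 was not analysed here. Each gene is represented by the probe set, a group of probes for one transcript, of the highest mean over all arrays.

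The cells were primary fibroblasts of mice of strain C57bl6X129S3/J, 3 samples carrying the Delta9 change of Lmna, which encodes lamins A and C, and 3 wild-type (WT) samples, on 1 Affymetrix array each. All 6 were lines derived from siblings at passage 3, and all were kept without serum for 72 hours, a treatment that drives fibroblasts out of the cell cycle. No serum-fed cells were included, so the size of the starvation response itself cannot be read. Neither labels nor design text state the zygosity, the sequence change or how many animals were used. The labels call the cells adult, whereas the design text calls them post-natal. Values are on the log2 scale, on which a difference of 1 is a doubling, and differences are Delta9 minus WT.

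Lmna itself had levels of 6.11 to 7.07 in Delta9 and 8.35 to 8.89 in WT. All 12 fibroblast markers measured had lower values in Delta9, with a median difference of -0.25, and the list averaged 9.86 to 10.1 on the Delta9 arrays and 10.3 to 10.5 on the WT arrays. All 18 macrophage markers measured had higher values in Delta9, with a median difference of 1.06. Their mean level was 9.38 to 10.0 on the Delta9 arrays and 7.44 to 9.48 on the WT arrays, and 16 of the 18, among them Cd68, Csf1r and Adgre1, averaged above the median level of all genes, 4.79. Itgam and Cd163 were below it, at 4.17 and 2.66. Macrophage transcripts were thus measured in cultures of both genotypes, and their part in the results below was not tested. Poly-A spike-in transcripts, which are added to the RNA before labelling, averaged 5.20 on Delta9 replicate 3 and 4.85 on WT replicate 1, while the remaining 4 ranged from 5.64 to 6.10. The split lies at the widest gap that leaves at least 2 arrays a side, 0.44. The second widest gap, 0.35, lies between the 2 lower arrays themselves. These 2 arrays also had the highest 18S ribosomal RNA signals, 10.4 and 10.1, against 7.86 to 9.51 on the others. They stood apart for the mitotic genes too, and the part of spike-in yield in this was not tested. Results are given with and without them.

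In starved Delta9 fibroblasts 35 of the 36 mitotic genes had higher values than in WT, but the differences were small and 0 passed the threshold of an adjusted p of 0.05. The median difference was 0.24, against -0.01 over all genes, of which 46.8% had higher and 53.2% lower values. The largest was that of Cenpa, at 0.66, and the 1 gene with a lower value was Ect2, at -0.03. In limma's linear model with Benjamini-Hochberg adjustment over all genes, the smallest adjusted p among the members was 0.297. Lmna itself differed by -1.96 and also missed the threshold, with an adjusted p of 0.0899 in limma. The background at this threshold was 0.0055% of all genes called higher and 0.055% called lower. At an unadjusted p under 0.05 there was 1 member, Cenpa, higher and 0 lower, where 4.54% of all genes were higher and 6.06% lower at that level. Cenpa was also the only member whose groups did not overlap, against 7.27% of all genes lying wholly higher in Delta9 and 9.99% wholly lower. By these counts of single genes the members did not exceed the background. The share of higher values was above the background, but since the genes varied together from array to array, the 35 are not 35 separate observations.

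**Figure D1:**
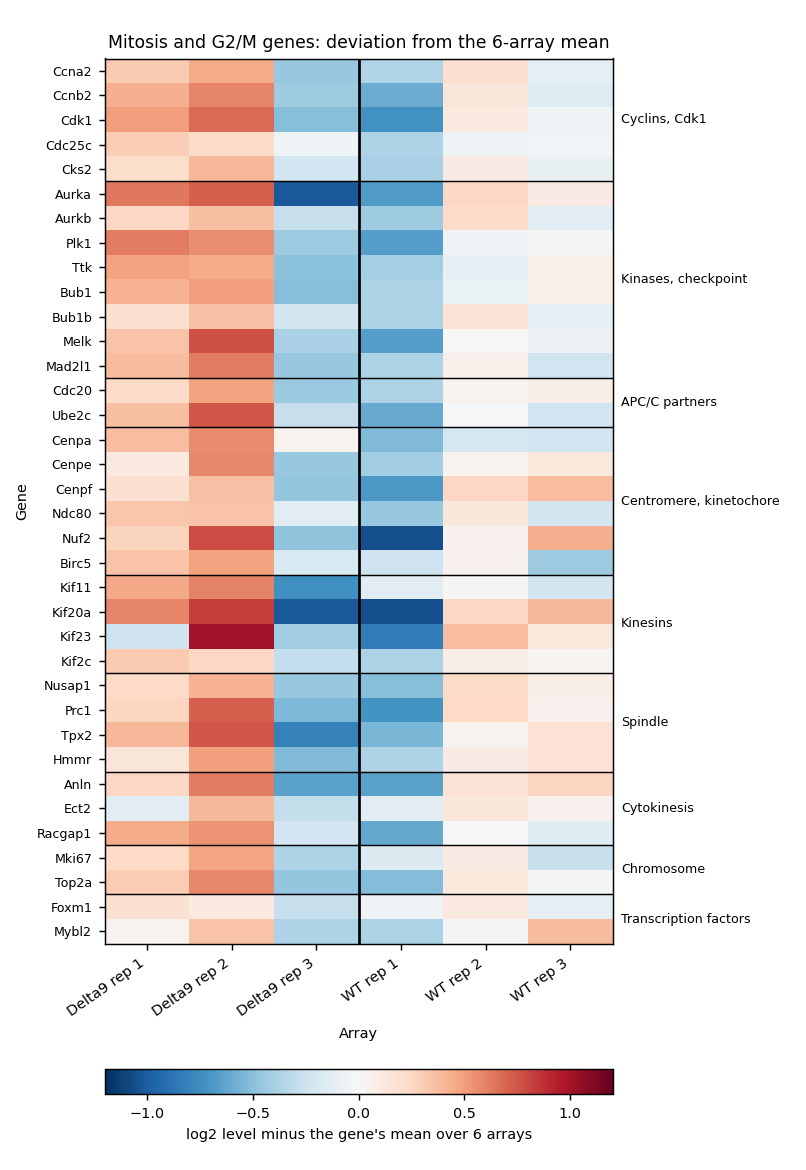
Level of each of the 36 mitotic genes (rows, by role) on the 3 Delta9 and 3 WT arrays (columns), as the log2 difference from the gene's own mean over the 6 arrays; red is above and blue below that mean. Delta9 replicate 3 and WT replicate 1 are blue for nearly all genes, and Delta9 replicates 1 and 2 are mostly red.

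The genes moved as a block between arrays. Relative to each gene's mean over the 6 arrays, the 36 genes averaged 0.30, 0.53 and -0.42 on the Delta9 arrays in replicate order. On the WT arrays they averaged -0.50, 0.09 and 0.00. The spread within a genotype, with an SD of 0.50 in Delta9 and 0.32 in WT, was thus larger than the difference of 0.27 between the genotypes. Delta9 replicate 3 was the lowest Delta9 sample for 36 of 36 members, against 43.1% of all genes. WT replicate 1 was the lowest WT sample for 32 of 36, against 45.4% of all genes. The exceptions were Birc5, Kif11, Mki67 and Foxm1. For 28 of the 36 these 2 arrays lay below all 4 others, which was so for 19.3% of all genes. Delta9 replicate 2 was the highest of the 6 arrays for 29 of 36, against 13.2% of all genes. The median range over the arrays was 1.05 for the members and 0.50 for all genes. In a culture read as a whole, fewer dividing cells and less RNA of these genes per dividing cell cannot be told apart.

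Promoters of 4 genes are shown, those of the brightest members with a CHR before the start. Ube2c, Cdk1 and Top2a were lowest on Delta9 replicate 3 and WT replicate 1, and Mki67 was one of the exceptions. Each line is the 100 bases before the transcription start in RefSeq's GRCm38.p6 annotation, read 5′ to 3′ on the gene's strand. Capitals mark the CHR (TTTGAA or TTCGAA, or TTCAAA where it lies on the other strand) and the CCAAT box (CCAAT or, on the other strand, ATTGG), which the factor NF-Y is known to bind.
Ube2c, chr2:164769829-164769928, plus strand: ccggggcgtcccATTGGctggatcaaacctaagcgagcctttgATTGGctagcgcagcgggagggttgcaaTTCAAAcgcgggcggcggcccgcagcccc
Mki67, chr7:135716380-135716479, minus strand: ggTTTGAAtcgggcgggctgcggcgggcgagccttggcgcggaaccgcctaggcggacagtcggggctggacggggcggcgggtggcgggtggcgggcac
Cdk1, chr10:69352913-69353012, minus strand: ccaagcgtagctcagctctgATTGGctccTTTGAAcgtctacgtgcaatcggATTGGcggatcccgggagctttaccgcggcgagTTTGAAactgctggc
Top2a, chr11:99024190-99024289, minus strand: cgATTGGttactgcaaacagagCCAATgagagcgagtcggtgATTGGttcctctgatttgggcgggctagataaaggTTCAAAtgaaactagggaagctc
Ube2c, Cdk1 and Top2a hold both motifs, with a CHR whose first base lies 29, 15 and 23 bases before the start and CCAAT boxes further out. Cdk1 has a second CHR at 71 bases. Mki67 has a CHR at 98 bases and no CCAAT in this window. Of the 30 members matched by symbol to RefSeq's promoter table, 7 had a CHR on either strand in this window, or 23.3%, against 7.18% of 27025 genes, and 19 had a CCAAT box, or 63.3%, against 21.6%. Both were present for 6 of the 30, or 20.0%, against 1.36% of all. These shares were not particular to the members. Of 55 further mitotic genes, from a list described below, 32.7% had a CHR, 58.2% a CCAAT box and 18.2% both. Of 35 S-phase genes 5.71% had a CHR, 51.4% a CCAAT box and 0% both. A match of letters is a description and not a bound site.

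Cyclins, Cdk1 and their partners start mitosis. Cdk1, the kinase that drives entry into mitosis, had levels of 8.92, 9.10 and 7.90 in Delta9, against 7.69, 8.53 and 8.36 in WT. Delta9 replicates 1 and 2 were above all WT samples, but Delta9 replicate 3 was below 2 of the 3, so the groups overlapped, and the difference was 0.44 (SE 0.35, 95% confidence interval -0.39 to 1.28). Cdc25c, a phosphatase that activates Cdk1, was dim, with 4.73, 4.67 and 4.38 in Delta9 against 4.07, 4.37 and 4.41 in WT. Here the overlap came down to Delta9 replicate 3 and WT replicate 3, and the difference was 0.31 (SE 0.16, adjusted p 0.535 in limma). The mitotic cyclins Ccnb2 and Ccna2 differed by 0.40 (SE 0.31) and 0.20 (SE 0.27), and the Cdk-binding subunit Cks2 by 0.25 (SE 0.20).

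The mitotic kinases and checkpoint genes all had higher values in Delta9, and none passed the threshold. Plk1, the polo-like kinase that acts from mitotic entry to division, had 7.50, 7.44 and 6.45 in Delta9, against 6.22, 6.83 and 6.86 in WT, a difference of 0.49 (SE 0.32). Its 2 highest samples were Delta9, and its lowest Delta9 sample lay within the WT range. Aurkb, the kinase of the chromosomal passenger complex, had 5.30, 5.41 and 4.77 in Delta9, against 4.62, 5.28 and 4.91 in WT. WT replicate 2 nearly reached Delta9 replicate 1, and the difference was 0.22 (SE 0.24). Aurka, the spindle pole kinase, varied most in this group, from 4.98 to 6.71 in Delta9 and from 5.31 to 6.24 in WT. Of the checkpoint genes, Mad2l1 differed by 0.37 (SE 0.29), Ttk (the kinase Mps1) by 0.29 (SE 0.28), Bub1 by 0.27 (SE 0.29) and Bub1b by 0.22 (SE 0.21). Melk, a kinase of dividing cells, differed by 0.48 (SE 0.32).

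Ube2c and Cdc20 work with the anaphase-promoting complex (APC/C), the ubiquitin ligase that ends mitosis. Ube2c, its ubiquitin-conjugating enzyme, had 9.19, 9.58 and 8.56 in Delta9, against 8.22, 8.84 and 8.60 in WT. Delta9 replicate 3 lay within the WT range, and the difference of 0.55 (SE 0.28) was the largest after Cenpa, with an adjusted p of 0.534 in limma. Cdc20, an activator of the complex, had 8.25, 8.51 and 7.57 in Delta9, against 7.64, 8.06 and 8.10 in WT. Its lowest sample was a Delta9 one, and the difference was 0.18 (SE 0.26).

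Cenpa, the histone H3 variant that marks the centromere, was the one member with separate groups. Its levels were 7.55, 7.74 and 7.22 in Delta9, against 6.65, 6.97 and 6.94 in WT. The lowest Delta9 sample, replicate 3, was still above the highest WT sample. The difference was 0.66 (SE 0.18, 95% confidence interval 0.23 to 1.08), a 1.58-fold higher level, which missed the threshold (adjusted p 0.297 in limma). It stayed between 0.54 and 0.80 with any 1 sample left out. Its other 2 probe sets were dim and differed by 0.10 and 0.04, and with all 3 averaged the difference was 0.27 (adjusted p 0.404 in limma). Birc5 (survivin), of the chromosomal passenger complex, had 8.15, 8.29 and 7.63 in Delta9, against 7.56, 7.86 and 7.37 in WT. Only WT replicate 2 exceeded a Delta9 sample, and the difference was 0.42 (SE 0.22). The kinetochore genes were mixed in size: Nuf2 differed by 0.38 (SE 0.45) and its partner Ndc80 by 0.36 (SE 0.21), whereas the kinetochore motor Cenpe differed by 0.16 (SE 0.28) and Cenpf by 0.05 (SE 0.33).

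**Figure D2:**
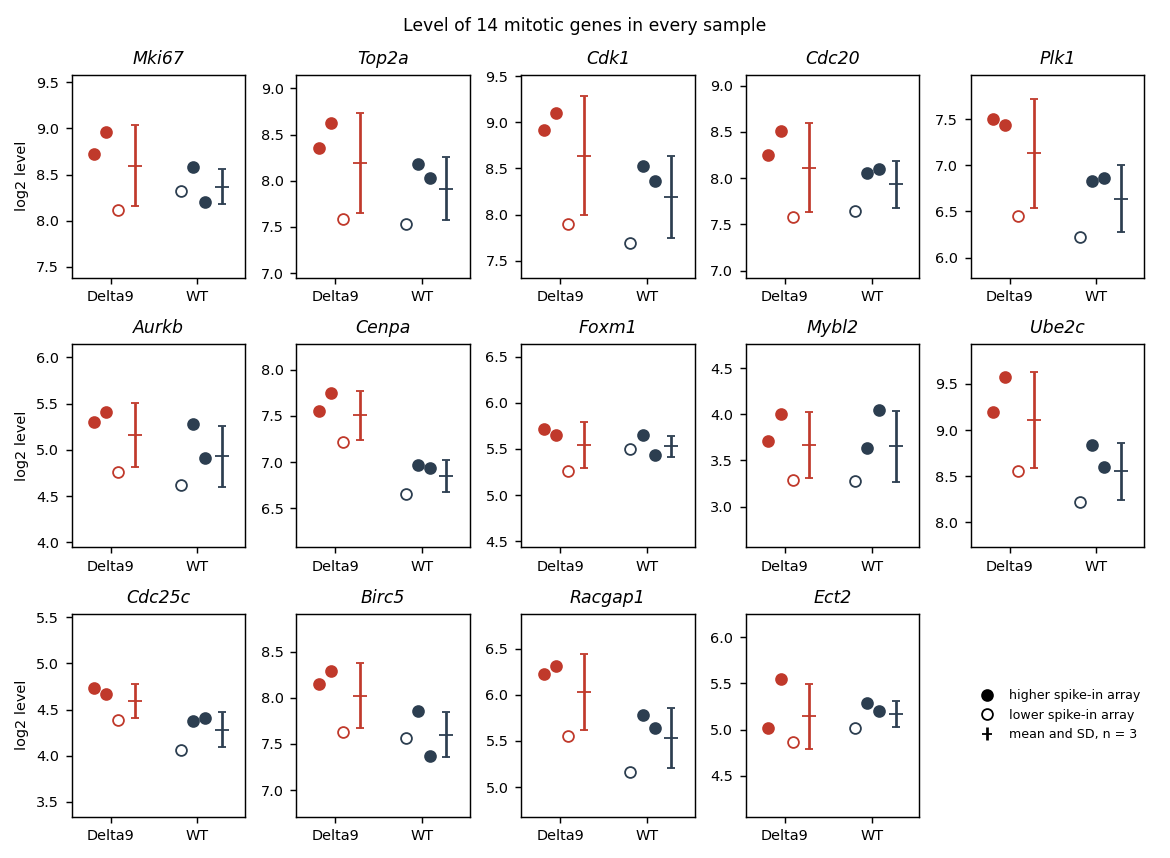
Log2 level of 14 mitotic genes in each sample, 3 Delta9 (left, red) and 3 WT (right, dark) per panel, each panel spanning the same width in log2 units; bars are the mean and SD, and open circles mark Delta9 replicate 3 and WT replicate 1. The Delta9 and WT points are separate for Cenpa and overlap in the other panels, and most open circles are the lowest of their group.

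Kinesins had the widest spread, with a median range of 1.59 over the arrays. The kinesin Kif20a, which acts in cytokinesis, ranged over 1.89 log2 between arrays, with 6.26, 6.51 and 4.67 in Delta9, against 4.62, 5.93 and 6.07 in WT. One sample of each genotype was low and the others were high, so the difference of 0.28 had an SE of 0.56. Kif23, a kinesin of the central spindle, differed by 0.23 (SE 0.45), the spindle-pole separator Kif11 by 0.22 (SE 0.34) and the microtubule-depolymerising Kif2c by 0.18 (SE 0.22). Kif11 was dim. Among spindle proteins, Prc1, a microtubule bundler, differed by 0.29 (SE 0.37), Tpx2, an activator of Aurka, by 0.22 (SE 0.41), Nusap1 by 0.13 (SE 0.29) and Hmmr by 0.07 (SE 0.29).

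Racgap1, a part of the centralspindlin complex that sets up the division furrow, had 6.22, 6.32 and 5.55 in Delta9, against 5.16, 5.78 and 5.64 in WT. Delta9 replicate 3 lay below WT replicates 2 and 3, and the difference was 0.50 (SE 0.26, adjusted p 0.535 in limma). Ect2, which centralspindlin recruits to the division plane, had 5.02, 5.54 and 4.87 in Delta9, against 5.02, 5.29 and 5.20 in WT. Its groups lay over each other, and the difference was -0.03 (SE 0.20). The furrow scaffold Anln differed by 0.15 (SE 0.37).

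Mki67, the proliferation marker Ki-67, coats mitotic chromosomes. Its levels were 8.72, 8.96 and 8.11 in Delta9, against 8.32, 8.58 and 8.21 in WT. The 2 highest samples and the lowest sample were all Delta9, and the difference was 0.23 (SE 0.23, 95% confidence interval -0.32 to 0.77), so that a change of either sign is within its error. Top2a, the topoisomerase that untangles chromosomes, had 8.36, 8.62 and 7.58 in Delta9, against 7.53, 8.18 and 8.03 in WT, with a difference of 0.27 (SE 0.30).

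The 2 transcription factors of this programme had differences near 0 with wide intervals. Foxm1, which activates genes of G2 and mitosis, had 5.72, 5.65 and 5.26 in Delta9, against 5.49, 5.65 and 5.43 in WT, a difference of 0.02 (SE 0.17). The 95% confidence interval of -0.38 to 0.41 bounds it on either side. Mybl2, which encodes B-Myb, was dim, with 3.71, 4.004 and 3.29 in Delta9, against 3.28, 3.63 and 4.05 in WT. Its difference was 0.02 (SE 0.25, 95% confidence interval -0.56 to 0.59). Neither genotype was consistently the higher for these 2 genes. Both intervals include the median difference of the members, 0.24, so these 2 genes are not set apart from the rest.

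**Figure D3:**
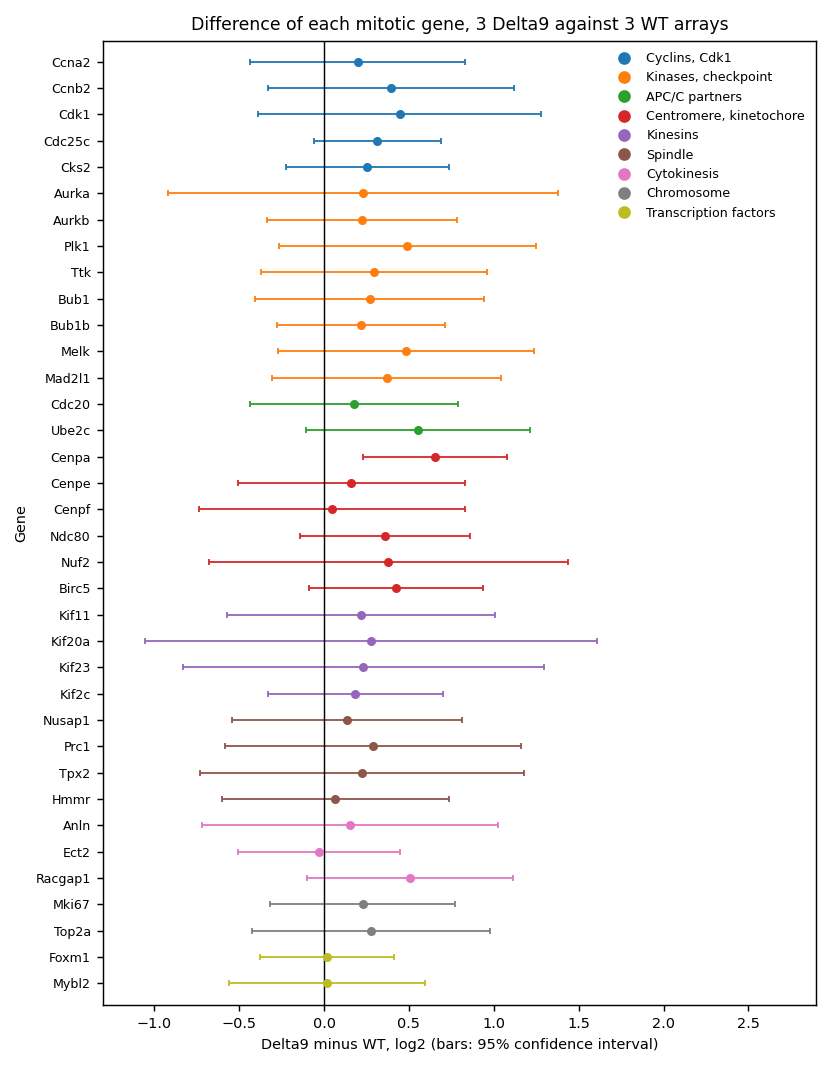
Difference of each of the 36 genes, Delta9 minus WT in log2 (points), with its 95% confidence interval from limma (bars), 3 arrays per group, coloured by role. All points but that of Ect2 lie right of 0, and only the interval of Cenpa leaves 0 out.

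Probe sets that the rule did not choose gave a further reading of the same RNA. The 36 genes had 77 probe sets, and 24 genes had more than 1. Of the 41 probe sets not used, 30 differed in the same direction as the one used and 11 in the opposite. Of the 10 that were at or above the median level of all genes, 9 had the same direction. Ccna2 differed by 0.38 on its other probe set against 0.20 on the one used, and Cdc20 by 0.28 and 0.21 against 0.18. Racgap1 differed by 0.23 against 0.50. The exception was Prc1, at -0.02 against 0.29.

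With Delta9 replicate 3 and WT replicate 1 set aside, the mitotic genes separated the genotypes more often. There the median difference was 0.36, against -0.02 over all genes, and 35 of 36 had higher values in Delta9 (46.3% of all genes). For 27 of 36 both Delta9 replicates 1 and 2 lay above both WT replicates 2 and 3, against 22.9% of all genes, and for 0 both lay below, against 26.1%. At an unadjusted p under 0.05 in limma 17 were higher and none lower, against 8.17% and 7.88% of all genes, but 0 passed the adjusted threshold, where 0.055% of all genes were higher and 0.28% lower. The smallest adjusted p was 0.118, for Cenpa. The arrays set aside were the lowest of their genotype for 36 and 32 of these same 36 genes. Since the genes varied together, counts of members in this and the following fits are not counts of separate observations. These 4 arrays also differed by genotype in an RNA quality measure: the signal of the 3′ Gapdh control exceeded that of the 5′ one by 0.25 and 0.23 in Delta9, against 0.49 and 0.51 in WT. Of the 18 macrophage markers 17 lay wholly higher in Delta9 there, with a median difference of 1.26, and 10 of the 12 fibroblast markers lay wholly lower, with a median of -0.33. Genotype, this measure and these markers cannot be told apart there.

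Between the 2 arrays of lower spike-in signal, 1 of each genotype and so without a test, the median difference was 0.06, and 23 of 36 genes had the higher value in Delta9 replicate 3, against 49.4% of all genes. The Gapdh measure was 0.57 on both. In both parts 22 of 36 genes were higher in Delta9. Among those given by sample above were Cenpa (0.70 within the 4 arrays and 0.57 between the pair), Ube2c (0.67 and 0.33), Racgap1 (0.56 and 0.39) and Plk1 (0.62 and 0.23). Kif11 changed sign, with 0.63 within the 4 arrays and -0.61 between the pair, and Mki67 differed by 0.45 and -0.21. With the split as a block in the fit, 11 of 36 genes were higher and 0 lower before adjustment (p under 0.05), against 9.01% and 9.04% of all genes. Again 0 passed the adjusted threshold, against 0.258% of all genes higher and 0.561% lower, and Cenpa came nearest with 0.66 (SE 0.10, adjusted p 0.0515 in limma).

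**Figure D4:**
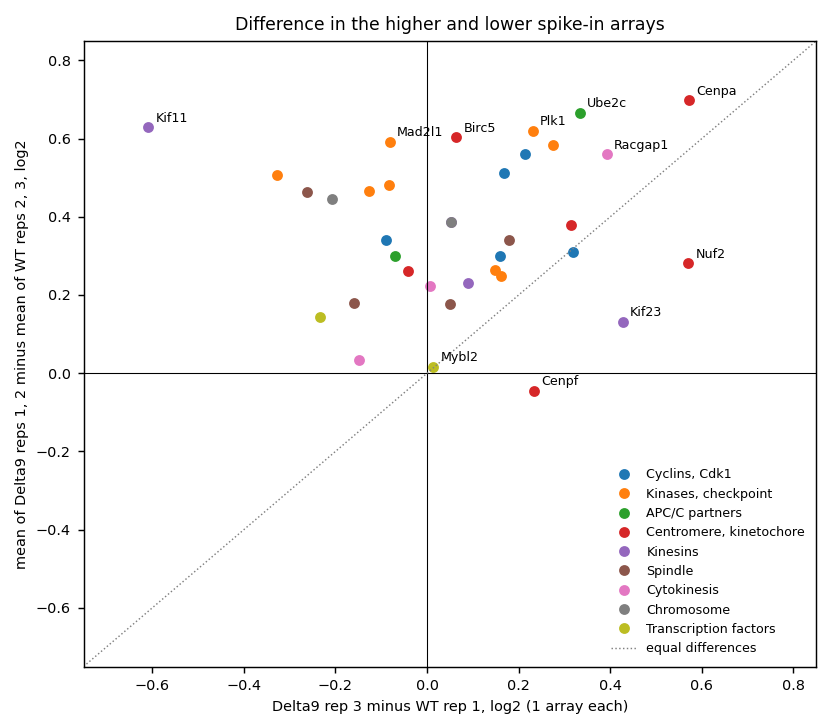
For each of the 36 genes, the log2 difference of Delta9 minus WT among the 4 arrays with the higher spike-in signal (vertical axis, means of 2 arrays a genotype) against that between the 2 arrays of lower signal (horizontal axis, 1 array each), coloured by role. All points but Cenpf lie above 0 on the vertical axis, whereas 13 of 36 lie left of 0 on the horizontal axis.

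Single samples decided the size of the difference. Without Delta9 replicate 3 the median was 0.55, all 36 genes had higher values, the groups were apart for 27 (17.2% of all genes wholly higher) and 21 were at an unadjusted p under 0.05 in limma, against 6.75% of all genes higher at that level. Without Delta9 replicate 2, the sample with the highest mitotic values, the median was 0.07 and 21 had higher values. Without WT replicate 1, the sample with the lowest, it was 0.07 with 24 higher, and without Delta9 replicate 1 it was 0.16. With arrays weighted by their fit, 9 were at an unadjusted p under 0.05, against 9.05% of all genes higher. In none of these fits did a member pass the adjusted threshold.

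Other cell cycle genes followed the same arrays, for a somewhat smaller share of genes. Delta9 replicate 3 and WT replicate 1 lay below the other arrays for 41 of 67 further mitotic genes and 25 of 42 S-phase genes. This was so for 28 of 36 members and 19.3% of all genes. Within the 4 arrays, Delta9 lay wholly higher for 37 of the 67 and 30 of the 42, against 22.9% of all genes. It lay wholly lower for 3 and 1, against 26.1%. Of 67 further mitotic genes 54 had higher values in Delta9, with a median of 0.14 (0.23 within the 4 arrays and -0.02 between the pair). In limma 0 passed, and 1 was higher at an unadjusted p under 0.05, against 4.54% of all genes. That gene was Incenp, the scaffold of the chromosomal passenger complex, at 0.52 (SE 0.16). It did not follow the array pattern: it had 8.50, 8.60 and 8.58 in Delta9, against 8.33, 7.94 and 7.83 in WT. Zwint, a kinetochore protein, differed by 0.44 (SE 0.19) and the kinetochore scaffold Knl1 by 0.22 (SE 0.12). On the lower side were the centriole kinase Plk4 at -0.20 (SE 0.17), the checkpoint gene Mad1l1 at -0.19 (SE 0.13) and the kinesin Kif14 at -0.10. Knl1, Mad1l1 and Kif14 were dim, and Kif14, with a mean of 1.99, lay near the bottom of the scale. Of 42 S-phase genes 37 had higher values, with a median of 0.23 (0.36 within the 4 arrays and -0.01 between the pair). None of them passed in limma, and 4 were higher at an unadjusted p under 0.05, against 4.54% of all genes. The groups were apart, with Delta9 higher, for 6 of these 42 and for 3 of the 67 further mitotic genes, against 7.27% of all genes. They were apart with Delta9 lower for 0 in either list, against 9.99% of all genes. Pcna, the sliding clamp of DNA replication, had 10.9, 11.2 and 10.6 in Delta9, against 10.3, 10.6 and 10.1 in WT, with separate groups and a difference of 0.58 (SE 0.18, adjusted p 0.360). Rfc3, a subunit of the clamp loader, differed by 0.57 (SE 0.18) and Gins2, of the replicative helicase, by 0.32 (SE 0.13). On the lower side were the polymerase subunit Pole at -0.29 (SE 0.26), Gins3 at -0.20 and the cyclin Ccne2 at -0.06. Gins3 and Ccne2 were dim.

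The genes that control this programme had no common direction. The 16 APC/C subunits and regulators had a median difference of 0.06, with 10 higher. Among them Fzr1, which encodes the activator Cdh1, differed by 0.45 (SE 0.17), Anapc7 by 0.25 and Anapc15 by 0.22, and on the lower side Anapc5 by -0.30 (SE 0.13), Anapc4 by -0.16 and Anapc2 by -0.14. The 21 DREAM, E2F and NF-Y genes had a median of -0.01, with 10 higher, among them Nfya at 0.33 (SE 0.16), E2f1 at 0.31 (SE 0.16) and Lin9 at 0.29. On the lower side were Tfdp2 at -0.35 (SE 0.14), E2f5 at -0.34 (SE 0.15) and E2f4 at -0.22. Lin9 and E2f4 were dim. The array means of these 2 lists stayed within 0.11 of their overall mean, against up to 0.53 for the mitotic genes. Of 17 inhibitors, D-type cyclins and growth arrest genes 9 had higher values, with a median of 0.10 and a median range over the arrays of 0.94. None of the genes of these 3 lists passed the adjusted threshold in limma. Before adjustment, 2 were higher and 2 lower at p under 0.05 in limma, against 4.54% and 6.06% of all genes. Btg2, an antiproliferative gene, had 8.02, 7.84 and 8.57 in Delta9, against 7.94, 7.36 and 6.68 in WT, a difference of 0.82 (SE 0.34, adjusted p 0.463 in limma). Its relative Btg1 differed by 0.28 (SE 0.12), with separate groups, and Mdm2, an inhibitor of p53, by 0.32 (SE 0.25). On the lower side the D-type cyclin Ccnd2 differed by -0.16 (SE 0.21). Gas1, a growth arrest gene induced by serum starvation, had 8.48, 8.73 and 10.7 in Delta9, against 11.1, 10.3 and 10.3 in WT. It was highest on the 2 arrays where the mitotic genes were lowest, and lowest in Delta9 replicates 1 and 2. Its difference was -1.25 (SE 0.58, adjusted p 0.500 in limma). Gas6, a secreted ligand first found in arrested cells, was lower in all Delta9 samples, with 10.8, 10.3 and 10.8 against 11.6, 11.2 and 11.6 in WT, a difference of -0.80 (SE 0.18, adjusted p 0.222).

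**Figure D5:**
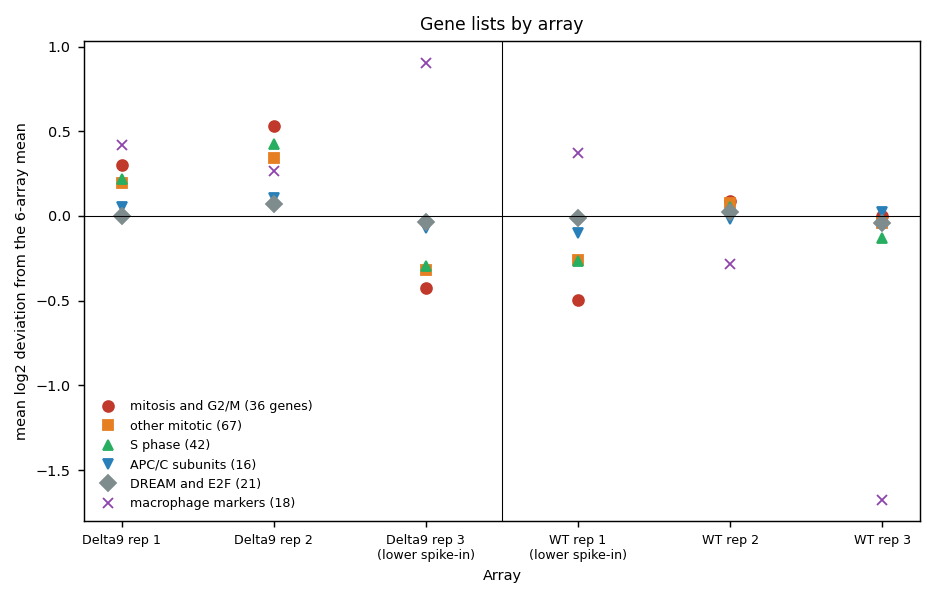
Mean log2 deviation from the 6-array mean for 6 gene lists (symbols, with the number of genes measured) on each array, Delta9 left and WT right. The mitotic, further mitotic and S-phase lists are lowest on Delta9 replicate 3 and WT replicate 1 and highest on Delta9 replicate 2, and the macrophage markers are highest of each genotype on those 2 low arrays.

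Macrophage markers moved against the mitotic genes within each genotype in part. Their mean deviations were 0.42, 0.26 and 0.91 on the Delta9 arrays in replicate order. On the WT arrays they were 0.37, -0.29 and -1.67. Delta9 replicate 3 and WT replicate 1, the lowest for mitotic genes, were the highest of their genotype for macrophage markers. WT replicate 3, the lowest for macrophage markers by far, was not the highest for mitotic genes, which averaged 0.00 there. Other marker lists varied on Delta9 replicate 3 and WT replicate 1 too. The 6 endothelial markers, 4 of them dim, averaged lowest of each genotype there, at -0.37 and -0.34. The 12 fibroblast markers averaged highest of Delta9 on the former, at -0.09, and lowest of WT on the latter, at 0.10. The share of each cell type in the mitotic RNA was not tested.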

How the data were processed

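Expression was measured on 6 Affymetrix arrays, 3 Delta9 and 3 WT. Per the labels' protocols, RNA was extracted with Trizol and labelled with biotin. The deposited log2 values cover 45101 probe sets. The log2 base was inferred from their range, and the array medians of 3.36 to 3.43 show a near-common scale. How probe signals were summarised and normalized is not given in the sources used here, and the table holds no detection calls.

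The 64 control probe sets were kept out of the tests. Gene names came from the platform annotation: 34945 probe sets had 1 symbol, 932 several and 9160 are unnamed here. The differences were fitted with limma 3.58.1 (lmFit, eBayes with trend) under R 4.3.3 over all 18193 genes, with Benjamini-Hochberg adjustment and no filter, and the fit was tested on simulated data. "Dim" means a mean below 4.79, the median over all genes. The split by spike-in signal used 24 poly-A control probe sets. Motifs were searched as exact letters on both strands.

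The members, lists, split and tests were chosen with earlier results of these data known. Levels per sample are given for Mki67, Top2a, Cdk1, Cdc20, Plk1, Aurkb, Cenpa, Foxm1, Mybl2, the 5 members of lowest p in each direction (there was 1 lower) and Kif20a, chosen after its values were seen for its range. Of each other list the 3 genes of lowest p in each direction are named. The lines were derived from siblings, but whether each sample came from a separate animal is not stated. The p-values therefore cover only the scatter among the samples at hand, which may be technical. The number of arrays limits the precision. The samples' shared replicate numbers were not treated as pairs: the deviations of same-numbered samples correlated at -0.40, 0.17 and -0.43. The highest correlation between genotypes was 0.59, for Delta9 replicate 3 and WT replicate 1. Whether the numbers mark pairs is not stated.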

Additional observations from a re-analysis of the deposited data

How the results depend on the processing

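No member passed the adjusted threshold under any of the 17 alternatives. With single samples left out, the median difference of the members ran from 0.07 to 0.55, the number with higher values from 21 to 36, the number at an unadjusted p under 0.05 from 1 to 21, the number with separate groups from 1 to 27, and the genes called over the whole table from 1 to 81 (0 to 12 higher and 1 to 69 lower), against 11 (1 higher and 10 lower) with all samples. Among all genes 149 passed with the spike-in split as a block (47 higher, 102 lower), 61 within its 4 arrays (10 and 51), 139 with array weights (37 and 102), 48 at an adjusted p of 0.1, and 0 higher with probe sets averaged per gene. At an unadjusted p under 0.05 there were 9 members with array weights, 11 with the spike-in block and 17 within the 4 arrays, where 27 had separate groups. The shares of all genes higher at that level were 9.05%, 9.01% and 8.17%, against 4.54% in the main fit. Within the 4 arrays 22.9% of all genes lay wholly higher, against 7.27% in the main fit. Without Delta9 replicate 3, which gave the counts of 21 and 27, these shares were 6.75% and 17.2%. With the replicate number as a block 0 genes passed (0 higher, 0 lower), 1 member was at an unadjusted p under 0.05 and the median stayed at 0.24. The labels do not state whether the numbers pair the samples. Of the 15 members given by sample, 3 changed sign under alternatives that keep all or 4 arrays: Foxm1 was -0.027 with quantile normalization, Mybl2 -0.042 with the mean of its probe sets, and Ect2 0.027 with array weights and 0.033 within the 4 arrays. With 1 sample left out Foxm1 ran from -0.069 to 0.16, Mybl2 from -0.17 to 0.21, Ect2 from -0.23 to 0.11, Cdc20 from -0.021 to 0.44 and Kif20a from -0.18 to 0.85. With probe sets averaged per gene, Cenpa was 0.27, Racgap1 0.23 and Top2a 0.12. The causes were not tested. The dim members Mybl2, Kif11, Ttk and Cdc25c averaged 3.66, 3.93, 4.49 and 4.44, where the lowest mean of any gene was 1.70. Low signal can understate a difference, and whether it did so here was not tested.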
